A study of Homo sapiens with 8 samples.

Results

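A pair of chromosomal segments, 1p13-p21 on chr1 and 3p14 on chr3, is known to be rearranged and amplified in cells derived from the MCF7 breast cancer line. The sites described here are the estrogen receptor (ER) binding sites inside them. A site was kept when its summit, the position of highest enrichment, lay on chr1 from 100 to 118 Mb or on chr3 from 60 to 75 Mb of GRCh38. Of 25365 sites in all, 838 were kept, 456 in the chr1 segment and 382 in the chr3 segment, and each segment is described against the other 1063 sites of chr1 or the other 2092 of chr3.

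The cells were LY2, an ER+ line derived from MCF7 that grows in the presence of tamoxifen. They were depleted of serum for 24 hours, transfected for 48 hours with a control small interfering RNA (siCtrl) or a pool against the kinase CDK12 (siCDK12), and all received 1 µmol/L β-estradiol for 1 hour before ER chromatin immunoprecipitation and sequencing (ChIP-seq). The analysed libraries were siCtrl replicates 2 and 3 and siCDK12 replicates 3 and 4, after the authors had left out 1 divergent replicate of each condition. The comparison asks whether ER occupies the same sites when CDK12 is depleted. CDK12 messenger RNA cannot be read from peak lists, so the depletion itself was not checked here, and the labels do not say which libraries came from separate cultures.

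ER is a nuclear receptor that binds DNA as a dimer. Its consensus motif, the estrogen response element, is a palindrome of paired arms separated by a short spacer, and a lone arm with a leading A, AGGTCA, is recognised more weakly. Most ER binding lies in introns and between genes rather than at promoters. ChIP-seq peaks are called where the stacked fragments (the pileup) exceed a local background, and DNA present in more copies supplies more fragments to both.

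The estrogen response element, GGTCANNNTGACC on either strand, was looked for in the 100 bp on either side of every summit, allowing 1 of its 10 fixed bases to differ. It was found at 6 of the 838 sites, and all 6 are shown on the plus strand of GRCh38 because a motif was so rare here. Capitals mark the element, and a substitution gives the consensus base, its position from 1 at the 5′ end of the element and the base in the genome.
NTNG1, with the summit in exon 4, chr1:107395092-107395120, T9A: gcctcagtGGTCACCAAGACCaacttatc
HIPK1 exon 16 near OLFML3, chr1:113976774-113976802, no mismatch: ctggcctgGGTCACAGTGACCtgacctca
intergenic near LINC01779, chr1:116181366-116181394, T9A: gtgtgctaGGTCAGGTAGACCaagttgtt
CD101 exon 6, chr1:117018234-117018262, C4T: tgagggccGGTTACTCTGACCtcaaggtg
intergenic near PNRC2P1, chr1:117842460-117842488, T3C: tcagatggGGCCAGTGTGACCtgagcaac
intergenic near CADPS, chr3:62932887-62932915, A11C: ttggtctaGGTCAGGGTGCCCcatcaata

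The 5 elements of the chr1 segment each lay at a site with a peak in 1 library. The element of the chr3 segment lay 7 bp from the summit of a site with a peak in 3 libraries, described further on.

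Beside these, 5 summits are shown with 50 bases on either side. They are the strongest site of the chr1 segment, the strongest lost site of each segment, the strongest gained site and a site with a peak in 3 libraries inside the antisense gene ADAMTS9-AS2. Capitals mark AGGTCA and AGATAA, the motif of GATA factors, which often bind beside ER.
TMIGD3, chr1:111513600-111513700: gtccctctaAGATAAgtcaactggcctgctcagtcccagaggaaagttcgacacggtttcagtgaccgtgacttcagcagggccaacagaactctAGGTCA
FHIT intron 2, chr3:61140055-61140155: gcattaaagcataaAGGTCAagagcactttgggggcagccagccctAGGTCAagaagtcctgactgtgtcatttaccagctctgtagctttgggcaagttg
LINC01661 intron 5, chr1:106853235-106853335: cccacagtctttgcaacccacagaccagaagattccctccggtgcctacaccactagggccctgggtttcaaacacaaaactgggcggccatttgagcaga
ENSG00000232895 intron 1, chr1:114236171-114236271: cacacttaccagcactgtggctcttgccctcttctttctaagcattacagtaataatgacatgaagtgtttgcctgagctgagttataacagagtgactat
ADAMTS9-AS2 intron 1, chr3:64754162-64754262: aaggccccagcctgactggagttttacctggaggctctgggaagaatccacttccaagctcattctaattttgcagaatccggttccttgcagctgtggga

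The 4 libraries held 12021 and 4955 peaks (siCtrl replicates 2 and 3) and 4819 and 5224 peaks (siCDK12 replicates 3 and 4) with a q-value under 0.05. siCtrl replicate 2 stood apart by its number of peaks. Peak lists do not give read numbers, so the depth is unknown. The segments hold 1.12% of the called bases of the genome, and 3.09%, 4.02%, 4.07% and 3.83% of the peaks of the libraries, in the order above, lay inside them.

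Peaks with a q-value under 0.05 were denser in both segments than on the rest of their chromosomes, in every library. siCtrl replicates 2 and 3 had 186 and 114 peaks in the chr1 segment, and siCDK12 replicates 3 and 4 had 106 and 105. This is 10.3, 6.33, 5.89 and 5.83 peaks per Mb, against 2.62, 0.861, 0.866 and 0.871 on the rest of chr1. The ratio was lowest in siCtrl replicate 2, at 3.94, and lay between 6.70 and 7.35 in the other 3 libraries. Its geometric mean was 6.03 (log2 2.59 ± 0.41, SD, n = 4; two-sided exact sign-flip permutation test, p = 0.125, the smallest that 4 libraries can give).

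In the chr3 segment there were 185 and 85 peaks for the siCtrl libraries and 90 and 95 for the siCDK12 libraries. Its density was 12.3, 5.67, 6.00 and 6.33 peaks per Mb, and that of the rest of chr3 was 5.35, 1.87, 2.21 and 2.34. The ratio was 2.31, 3.03, 2.72 and 2.71, with a geometric mean of 2.68 (log2 1.42 ± 0.16, SD, n = 4; two-sided exact sign-flip permutation test, p = 0.125). No test over 4 libraries can pass 0.05, so p = 0.125 in a sign-flip permutation test describes only that all libraries pointed the same way. Without siCtrl replicate 2 the mean ratios were 6.95 on chr1 and 2.82 on chr3.

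The higher density did not hold among peaks of a fold of 5 or more. The chr1 segment had 11, 2, 2 and 4 such peaks and the rest of chr1 76, 42, 23 and 27, a density ratio of 1.71, 0.562, 1.03 and 1.75 with a geometric mean of 1.15 (two-sided exact sign-flip permutation test, p = 0.75). The chr3 segment had 3, 1, 0 and 1 of them and the rest of chr3 117, 64, 55 and 59, so that their density was lower in the segment in 4 of 4 libraries. Its ratio was 0.313 and 0.191 in siCtrl and 0.207 in siCDK12 replicate 4. A fold of 5 takes more fragments where the local background is higher. The highest pileup of any peak in the chr3 segment was 49 to 52 fragments over the libraries. The density at this cut-off is therefore in part set by the local background.

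The peaks did not spread evenly along the segments. In the plot of peaks by Mb, those of the chr1 segment gathered around 6 to 8 and 13 to 15 Mb from its start, and those of the chr3 segment around 1 to 5 Mb. The bin from 64 to 65 Mb of chr3 alone held 105, 59, 60 and 58 peaks and 224 sites, 58.6% of the segment's sites.

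**Figure D1:**
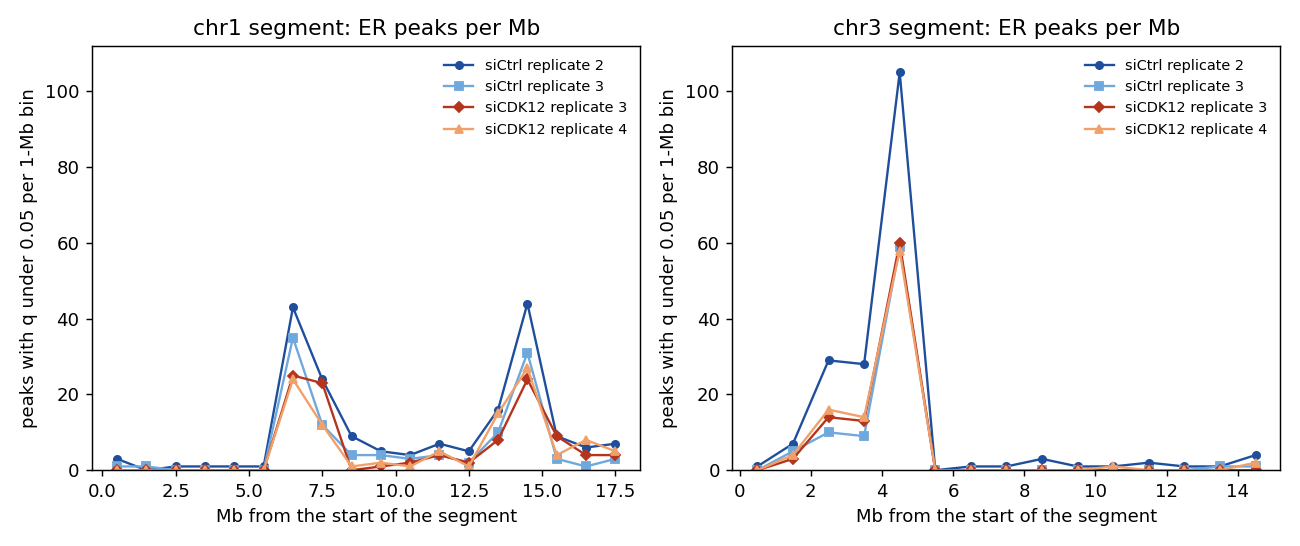
Number of ER peaks with a q-value under 0.05 in each 1-Mb bin (y axis) against the distance from the start of the segment in Mb (x axis), for the 4 libraries. All 4 libraries rise in the same bins, with a maximum of 105 peaks in siCtrl replicate 2 and 58 to 60 in the other 3 at 4 to 5 Mb into the chr3 segment.

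The local background under the peaks rose in the same places. It was solved for each peak from its deposited fold and p-value and is given as a multiple of the library's lowest background, defined as one that 50 or more of its peaks share. Its median in the chr1 segment was 4.76, 5.79, 6.28 and 5.57 in the libraries in the order above, and on the rest of chr1 it was 1.00, 1.26, 1.11 and 1.12. The medians in the chr3 segment were 9.88, 11.1, 10.99 and 10.6, and on the rest of chr3 they were 1.05, 1.23, 1.16 and 1.27. The ratio of segment to rest had a geometric mean of 4.97 on chr1 and 9.06 on chr3, above 1 in 4 of 4 libraries (two-sided exact sign-flip permutation tests, each p = 0.125).

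Most peaks of the segments lay on a background at least 3 times the lowest. Their share was 62.4% to 71.1% in the chr1 segment over the 4 libraries, and 0.541% to 4.92% on the rest of chr1. It was 85.4% to 96.7% in the chr3 segment and 0.234% to 2.05% on the rest of chr3. Of all peaks in the genome with such a background, 17.9% to 22.8% lay in these segments. Copy number is not part of the lists, so its part in the background was not tested.

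**Figure D2:**
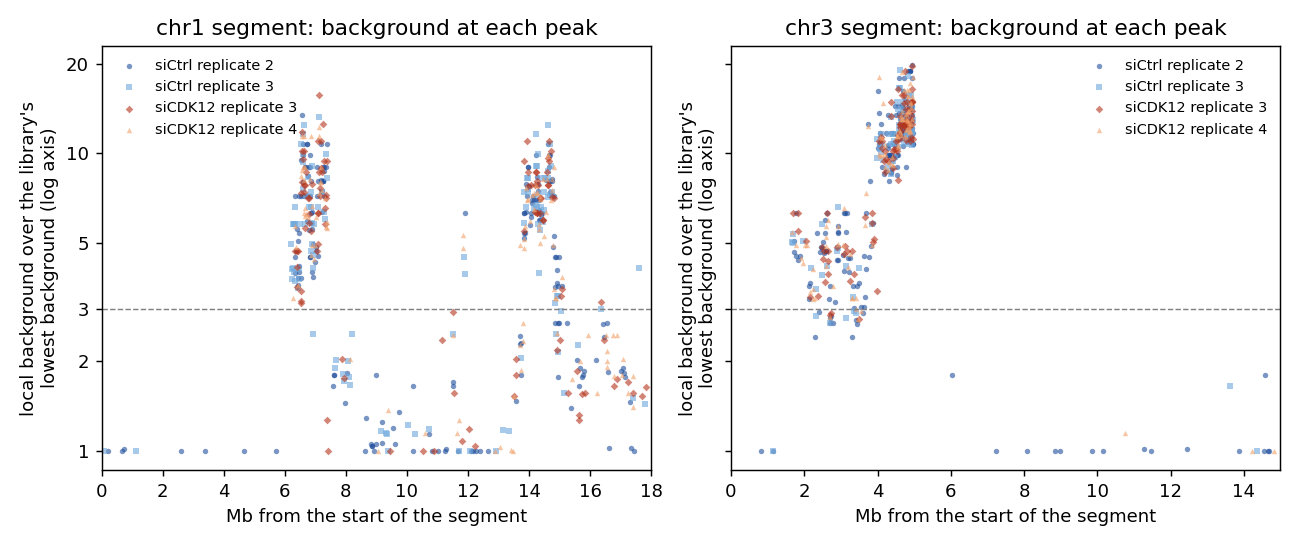
Local background of every peak in the segments, divided by the lowest background of its library (y axis, log scale), against the distance from the start of the segment in Mb (x axis), coloured by library. The dashed line marks 3 times the lowest background, and most peaks above it form 2 dense groups on chr1 and 1 stepped group on chr3.

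Joining peaks above that line that lay within 300 kb of each other, with at least 20 peaks, gave 3 blocks. They were outlined after the values were seen and so carry no test. The first chr1 block ran from 106.2 to 107.39 Mb and held 158 sites, 34.6% of the segment's sites in 6.57% of its length. The second ran from 113.69 to 115.09 Mb and held 147 sites, 32.2% in 7.79% of the length. The chr3 block ran from 61.66 to 64.97 Mb and held 360 sites, 94.2% in 22.01% of the length.

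Inside the blocks the libraries had 22.8 to 53.3 peaks per Mb, and outside them 1.95 to 4.15 in the chr1 segment and 0 to 1.45 in the chr3 segment. The background on chr3 had a step inside the block. Its median per Mb was 4.13 to 6.28 times the lowest from 61 to 64 Mb and 11.7 to 12.4 times from 64 to 65 Mb. The chr3 block then stopped abruptly within ADAMTS9-AS2, and the next site lay 1056 kb further on.

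The fold of a peak, its pileup over the local background, was lower in the segments although the pileup was higher. The median pileup was 20, 22, 25 and 22 fragments in the chr1 segment and 8 to 10 on the rest of chr1, and it was 28, 34, 36 and 33 in the chr3 segment and 9 to 10 on the rest of chr3. The median fold was 3.62, 3.23, 3.20 and 3.24 in the chr1 segment against 4.33, 4.35, 4.33 and 4.24 on the rest of chr1, a mean ratio of 0.769. In the chr3 segment it was 2.98, 2.71, 2.63 and 2.74 against 4.35, 4.32, 4.32 and 4.18, a mean ratio of 0.644. The fold that a peak needs to pass the q-value threshold falls as the background rises. On these chromosomes the lowest fold kept was 3.45 at a background under 2 times the lowest and 1.91 at 10 times or more. The lower median fold of the segments is therefore in part set by the threshold and carries no test. Among peaks of a fold of 5 or more the chr1 ratio was 1.07.

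**Figure D3:**
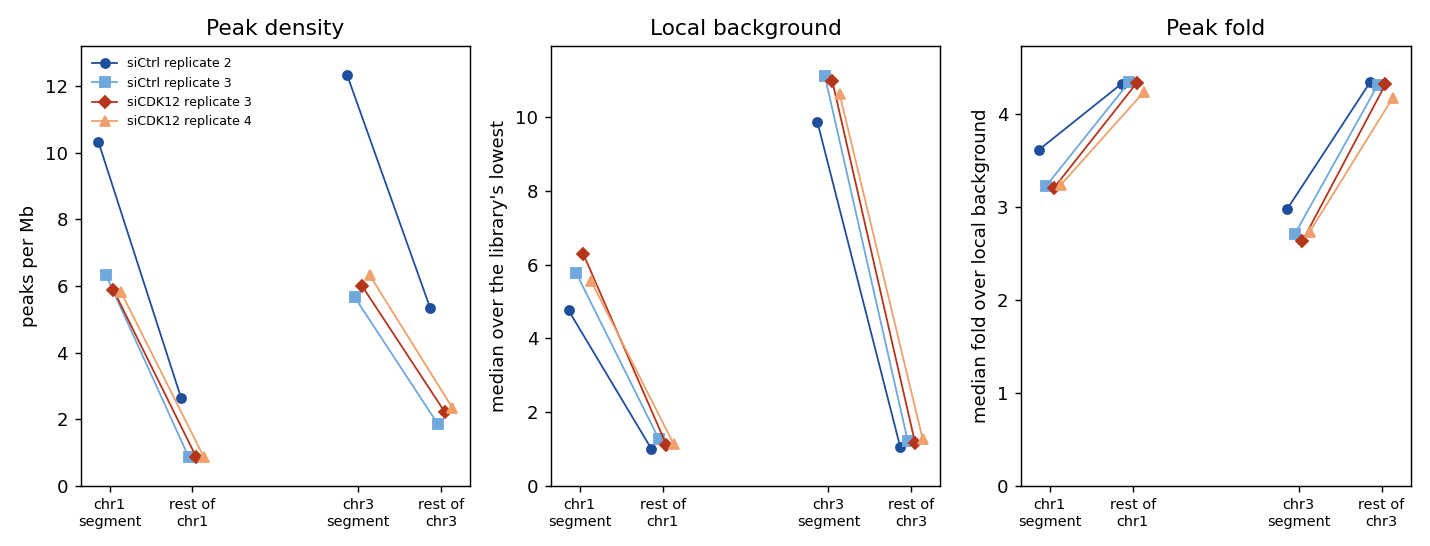
Peaks per Mb (left), median local background over the library's lowest (middle) and median fold over the local background (right), for each segment and the rest of its chromosome. Each line joins 1 library, and all 4 lines fall from segment to rest for density and background and rise for the fold.

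The segments' part of the chromosome's peaks was compared between the conditions, since the libraries differ in their number of peaks. Of the chr1 peaks, the chr1 segment held 25.03% and 38.4% in the siCtrl libraries and 36.6% and 36.2% in the siCDK12 libraries. The ranges overlapped, and the mean was 31.7% and 36.4% (two-sided exact permutation test over 6 assignments, p = 1, where the smallest possible is 0.333). The chr3 segment held 15.9% and 19.9% of the chr3 peaks in siCtrl and 18.2% in both siCDK12 libraries, with means of 17.9% and 18.2% (the same exact permutation test, p = 1). Both differences turned negative without siCtrl replicate 2, at -2.005 and -1.72 percentage points, and with the same number of peaks taken from each library, at -1.15 and -4.28 points.

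Among strong peaks, those reaching a -log10 q of 5, the groups did not overlap. Over the whole genome there were 809 and 468 such peaks in siCtrl and 130 and 109 in siCDK12. Of these, 5.19% and 4.49% in siCtrl and 6.15% and 8.26% in siCDK12 lay in the segments. The chr1 segment had 21 and 9 such peaks in siCtrl and 3 in each siCDK12 library, and the rest of chr1 had 39 and 24 against 5 and 4. Its share of the strong chr1 peaks was 35.0% and 27.3% for the siCtrl libraries and 37.5% and 42.9% for siCDK12. The chr3 segment had 21 and 12 strong peaks in siCtrl and 5 and 6 in siCDK12, and the rest of chr3 had 31 and 17 against 1 and 2. Its share was 40.4% and 41.4% for the siCtrl libraries and 83.3% and 75.0% for siCDK12, 38.3 percentage points higher in the mean (two-sided exact permutation test, p = 0.333, the smallest possible). The siCDK12 shares rest on 6 and 8 peaks on chr3 and on similarly few on chr1.

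Sites called in both siCtrl lists but in no siCDK12 list are termed lost, and those called in both siCDK12 lists but in no siCtrl list are termed gained. Of the 838 sites 25 were lost (2.98%, with 1.79% of all 25365 sites lost) and 13 were gained (1.55%, with 0.343% of all sites gained). In the chr1 segment 10 sites were lost (2.19%, exact Clopper-Pearson 95% interval 1.06% to 4.00%) and 7 gained (1.54%, 0.619% to 3.14%). In the chr3 segment 15 were lost (3.93%, 2.21% to 6.39%) and 6 gained (1.57%, 0.579% to 3.39%). The intervals cover counting error only.

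On the rest of chr1, 21 sites were lost (1.98%) and 2 gained (0.188%). On the rest of chr3, 20 sites were lost (0.956%) and 5 gained (0.239%). The intervals of the lost shares overlapped on chr1 and did not on chr3, where the rest reached from 0.585% to 1.47%. The same held for the gained shares, where the rest of chr3 reached from 0.0776% to 0.557%. With the same number of peaks taken from each library, the lost sites of the chr3 segment fell to 7.

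The segments also held many sites shared by 1 siCtrl and 1 siCDK12 library, and so called in both conditions. There were 32 of them in the chr1 segment (7.02%) and 38 in the chr3 segment (9.95%), beside 9 (0.847%) and 30 (1.43%) on the rest of chr1 and chr3. In the chr1 segment the 4 mixed pairs of libraries shared 4 to 14 sites each, next to 10 for the siCtrl pair and 7 for the siCDK12 pair. In the chr3 segment the mixed pairs shared 7 to 14 sites each, next to 15 for the siCtrl pair and 6 for the siCDK12 pair. Compared pair by pair, the lost and gained counts of the segments lay within the range of the mixed pairs or 1 site outside it. The upper end of each range came from a pair with siCtrl replicate 2, which has the most peaks. The mixed pairs with siCtrl replicate 3 shared 4 and 5 sites in the chr1 segment and 7 each in the chr3 segment. On the rest of chr1 the siCtrl pair shared 21 sites and the mixed pairs 1 to 4, and on the rest of chr3 the siCtrl pair shared 20 and the mixed pairs 3 to 12.

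**Figure D4:**
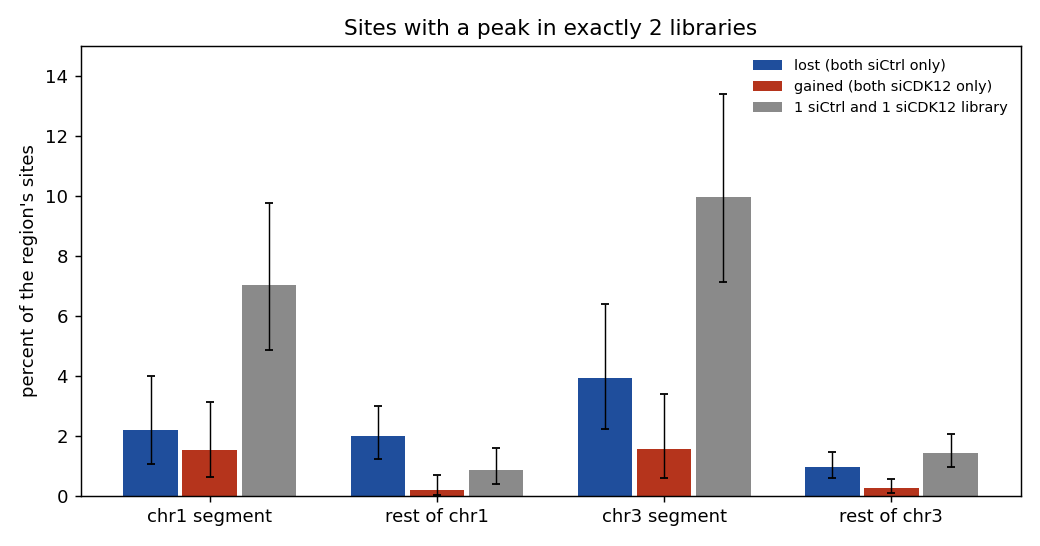
Percent of the sites of each region (y axis) with a peak in exactly 2 libraries, either both siCtrl (lost), both siCDK12 (gained) or 1 of each. Error bars are exact 95% Clopper-Pearson intervals, and the grey bars of the segments, 7.02% and 9.95%, stand above those of the rest of the chromosomes, 0.847% and 1.43%.

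Of the 838 sites 721 had a peak in 1 library and 117 in at least 2, and 665 (79.4%) lay in the 3 blocks. Of the 38 lost and gained sites 36 lay in the blocks. The background under the lost sites had a median of 5.29 times the lowest in the chr1 segment and 11.97 times in the chr3 segment, and under the gained sites it was 8.23 and 12.8 times. The part of the background in these calls was not tested.

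The strongest site lay outside the blocks, at 111513650 in TMIGD3 but beyond its canonical transcript, 10017 bp from the start of ADORA3, which encodes the adenosine A3 receptor. It was the only one of the 838 with a peak in all 4 libraries, and its background was 2.47 times the lowest. At its summit 55 and 47 fragments piled up in the siCtrl libraries, with 18 and 15 in the siCDK12 libraries. The fold was 20.5 and 12.4 for the siCtrl libraries and 4.13 and 4.10 for siCDK12, and the -log10 q was 56.4 and 34.7 against 3.08 and 2.49. Both siCDK12 values lay below both siCtrl values on each scale. The deposited values are not normalized between libraries, and no test was made on them. The best match to the element within 100 bp of its summit had 2 mismatches.

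The strongest site of the chr3 segment was the intergenic one with the element near CADPS, whose start lay 57478 bp away. CADPS encodes a protein of vesicle exocytosis. Its pileup was 45 and 31 fragments in siCtrl and 23 in siCDK12 replicate 4, with no peak in siCDK12 replicate 3. The fold was 6.78 and 3.70 in siCtrl and 3.09 in siCDK12, and the -log10 q was 19.97, 5.58 and 2.21. The siCtrl values were higher on each scale, on a background of 5.72 times the lowest.

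The strongest lost site of the chr3 segment lay in intron 2 of FHIT, a tumour suppressor gene at a fragile site, at 61140105. Its fold was 6.45 and 7.88 in the siCtrl libraries, from pileups of 12 and 16 fragments, and the -log10 q was 5.49 and 8.97. It lay outside the blocks on the lowest background, 1.00, and its sequence above holds AGGTCA at 2 places. It was the only lost site of the segment outside the block.

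In the chr1 segment the strongest lost site lay in intron 5 of the long noncoding RNA gene LINC01661, inside the first block. Its fold was 3.52 and 4.68 and its -log10 q was 3.89 and 7.77 in siCtrl. Another lay in intron 2 of KCND3, a potassium channel gene, with a fold of 2.98 and 4.70. It was the only lost site of the segment outside the blocks, though its background was 5.10 times the lowest. The rest were 4 intergenic sites 467152 to 730788 bp upstream of PRMT6, an arginine methyltransferase gene, and sites in NTNG1, AMPD1 and SYCP1. The start nearest to all 4 intergenic sites was that of ENSG00000270342. The SYCP1 pair lay in intron 23 of this gene of the synaptonemal complex, with folds of 3.53 to 4.65. None of the 10 held the element.

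The strongest gained site was in intron 1 of the uncharacterised gene ENSG00000232895 in the second chr1 block. Its fold was 2.92 and 3.71 and its -log10 q was 3.09 and 6.12 in the siCDK12 libraries, on a background of 8.23 times the lowest. A further gained site lay in intron 2 of TRIM33, a ubiquitin ligase gene of the TGF-beta pathway, with a fold of 3.72 and 2.53. Of the 6 gained sites on chr3, 3 lay in ADAMTS9-AS2 and the others in ADAMTS9, LINC00698 and intron 3 of SNTN. The fold of the SNTN site was 2.94 and 2.70 in siCDK12.

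Several strong sites were split between libraries of both conditions. An intergenic site at 106541254 lay 3490 bp from the start of ENSG00000270342 and 515420 bp upstream of PRMT6. Its -log10 q was 14.4 and 2.92 in siCtrl and 3.96 in siCDK12 replicate 4. A site in intron 2 of NTNG1, the netrin-G1 gene, had 19.9 in siCtrl replicate 2 and 1.64 in siCDK12 replicate 3. A site in intron 18 of PTPN22, a phosphatase gene of lymphocytes, had 5.64 in siCtrl replicate 2 and 10.8 in siCDK12 replicate 3. The intergenic site had no peak in siCDK12 replicate 3. The NTNG1 and PTPN22 sites had no peak in siCtrl replicate 3 or in siCDK12 replicate 4, and so were split evenly between the conditions.

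**Figure D5:**
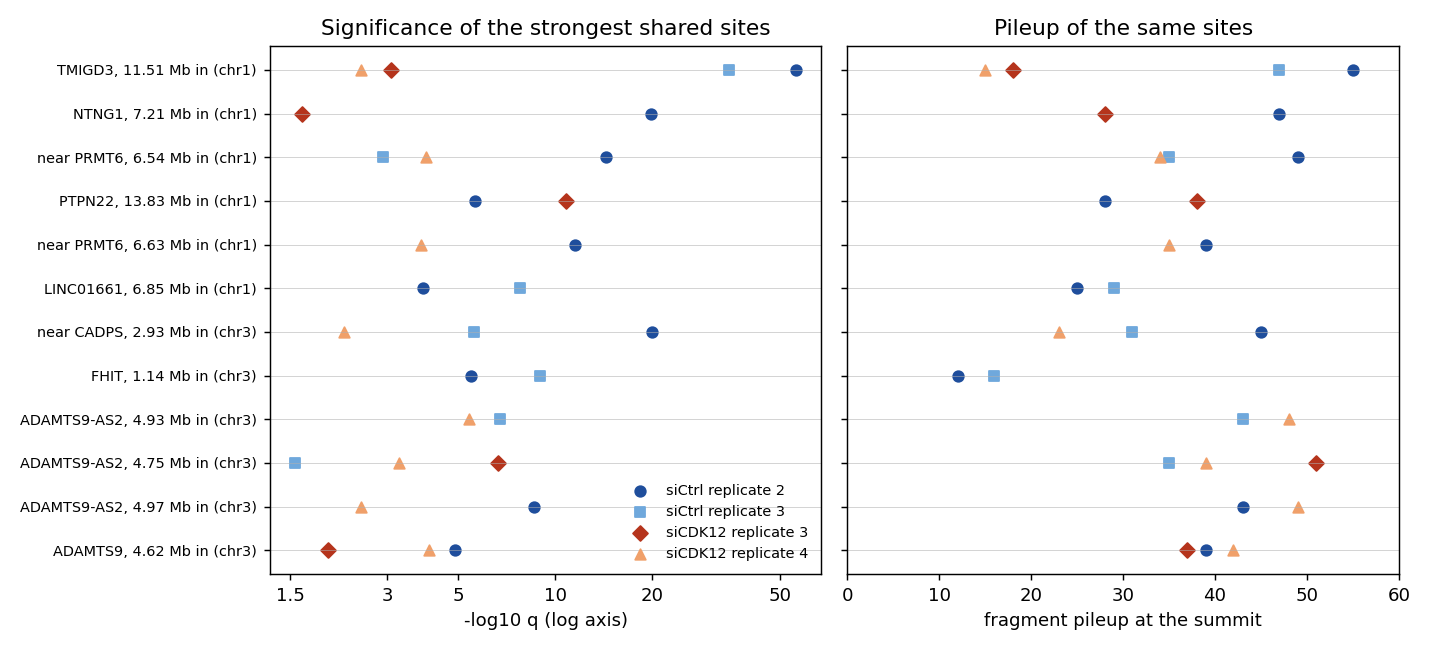
The 6 sites of each segment with a peak in at least 2 libraries and the highest summed -log10 q, with the -log10 q (left, log axis) and the fragment pileup at the summit (right) in each library that had a peak there. Rows are named by the gene they lie in and by their distance from the start of the segment in Mb. Intergenic sites are named by the protein-coding gene with the nearest start, up to 515420 bp away. The TMIGD3 site has the widest range, from 2.49 to 56.4, with both siCDK12 libraries lowest.

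Of the protein-coding genes in the segments, 52 of 145 on chr1 and 20 of 40 on chr3 held a site. The antisense gene ADAMTS9-AS2 held the most, 109 sites, with 53 and 31 peaks of the siCtrl libraries and 31 and 30 of the siCDK12 libraries. Of its sites 8 were lost, 3 were gained and 23 were shared by a mixed pair. It was followed by PRICKLE2, a gene of planar cell polarity, with 53 sites, ADAMTS9, an extracellular metalloproteinase gene, with 47, CADPS with 37 and NTNG1 with 35. ADAMTS9 and its antisense gene overlap in part, and a site is counted in 1 host.

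Within the 10 chr3 genes listed as other, counted with 10 kb on either side, 6 held a site. ADAMTS9 had 24.4 sites per 100 kb, CADPS 7.64 and SYNPR, a synaptic vesicle gene, 6.12. CNTN3 had 3 sites and PDZRN3 had 1. SLC25A26, SUCLG2, FRMD4B and SHQ1, all past the end of the block, had none.

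Of the 7 chr3 tumour suppressor and signalling genes 4 held a site. PRICKLE2 had 14.5 sites per 100 kb and the receptor phosphatase gene PTPRG 3.57, both over the block. FHIT, which is 1504 kb long and lies partly outside the segment, had 3 sites or 0.197 per 100 kb, and MAGI1 had 1. LRIG1, an inhibitor of ERBB receptors, had none, nor had ARL6IP5 and UBA3. Of the 5 transcription genes FOXP1 had 2 sites in siCtrl replicate 2, MITF, RYBP and FEZF2 had 1 each and TMF1 had none.

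On chr1, 5 of 6 transcription and RNA genes held a site. HIPK1, a kinase gene, had 17.5 sites per 100 kb, PRMT6 12.9 and TRIM33 7.22, all in the blocks. TENT5C had 1 site and NHLH2 none. Of 11 signalling genes 6 held a site, led by PTPN22 with 12.8 per 100 kb and NTNG1 with 9.87. VAV3, a guanine nucleotide exchange factor gene beside the first block, had 2.17, and NRAS in the second block had 2 sites. CSF1, S1PR1, WNT2B and RHOC had none.

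Of 8 adhesion and surface molecule genes 7 held a site, 13 sites in all. Their maximum -log10 q lay between 1.35 at CD53 and 3.67 at VTCN1, an immune checkpoint ligand. Of 12 enzyme and transporter genes 5 held a site, among them SORT1 with 4 and MAN1A2 with 5. Of the glutathione transferase genes GSTM1 to GSTM4 had none and GSTM5 had 1. A lost site lay in or near 1 gene of these chr1 lists, NTNG1, and a gained site near 1, TRIM33. On the chr3 lists FHIT, PRICKLE2, CADPS and SYNPR each had 1 lost site and ADAMTS9 had 1 gained site.

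Promoters were rarely among the sites. A summit lay within 1000 bp of a protein-coding start at 1 site of each segment, near BCL2L15 on chr1 and 10 bp from the start of SNTN on chr3, and each had a peak in 1 siCtrl library. On the rest of chr1 and chr3 this was so at 9 and 11 sites. Intergenic sites made up 49.1% of the chr1 segment and 9.95% of the chr3 segment, where 34.6% and 34.9% of the sites on the rest of chr1 and chr3 were intergenic.

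The element was present at 1.10% of the sites of the chr1 segment (exact 95% interval 0.357% to 2.54%) and at 2.16% on the rest of chr1 (1.38% to 3.23%). On chr3 it was present at 0.262% of the segment's sites (0.00663% to 1.45%) and at 1.48% on the rest (1.01% to 2.10%). In windows of the same length 1000 bp away it was found at 0 and 2 sites of the chr1 and chr3 segments. The intervals overlap, and the difference was not tested.

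The difference was wider at the sites of highest -log10 q, which were not matched for fold. At a -log10 q of at least 5 the median peak fold of the segments was lower than that of the rest. The mean ratio was 0.597 on chr1 and 0.483 on chr3. Of the sites where any library reached a -log10 q of 5, 0 of 34 in the chr1 segment held the element (interval up to 10.3%) and 1 of 41 in the chr3 segment (2.44%, 0.0617% to 12.9%). On the rest of chr1 it was 10 of 46 (21.7%, 10.9% to 36.4%) and on the rest of chr3 8 of 40 (20%, 9.05% to 35.6%). The intervals did not overlap on chr1 and did on chr3, and the difference was not tested. In siCtrl replicate 2 alone the element was at 0 of 21 such sites of the chr1 segment and 10 of 39 on the rest of chr1, and at 1 of 21 and 8 of 31 on chr3. In siCtrl replicate 3 the counts were 0 of 9 and 4 of 24 on chr1, and 1 of 12 and 4 of 17 on chr3. The siCDK12 libraries had 1 to 6 strong sites in each region, too few to compare.

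None of the 10 and 15 lost sites of the segments held the element (intervals up to 30.8% and 21.8%). On the rest of chr1 and chr3 it was at 5 of 21 (23.8%, 8.22% to 47.2%) and 6 of 20 (30.0%, 11.9% to 54.3%) of the lost sites. These intervals overlap on both chromosomes. AGGTCA was found at 3 of 10 and 1 of 15 lost sites of the segments and at 12 of 21 and 11 of 20 on the rest.

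Over all sites AGGTCA was found at 23.9% of those of the chr1 segment (20.1% to 28.1%) and 18.8% on the rest of chr1 (16.5% to 21.3%). It was found at 19.4% of those of the chr3 segment (15.5% to 23.7%) and 18.5% on the rest of chr3 (16.8% to 20.2%). The differences were not tested. In windows 1000 bp away it was at 10.96% and 12.3% in the segments. The AP-1 motif TGANTCA was at 5.70% and 7.33% of the segments' sites and at 5.48% and 7.85% of the windows beside them. The forkhead motif TGTTTAC was at 1.10% and 2.09%, with 3.07% and 2.88% beside, and AGATAA at 6.80% and 8.12%, with 17.1% and 15.7% beside. On the rest of chr1 and chr3 TGANTCA was at 6.30% and 6.17% of the sites and TGTTTAC at 2.16% and 2.01%. AGATAA was at 6.87% and 7.70% there, with 14.8% and 16.5% beside. All motifs were searched on both strands, and a match is a description of the letters only. The windows at the summits of the segments had a median GC content of 49.3% and 48.8%, and those beside them 37.3% and 39.3%. On the rest of chr1 and chr3 it was 49.8% and 48.8% at the summits and 39.8% and 37.3% beside.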

How the data were processed

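ER ChIP-seq peak lists of 4 LY2 libraries were analysed. The input libraries, 2 per condition, and the reads were not analysed here. The authors filtered single-end reads, aligned them to GRCh38 with BWA and called narrow peaks with MACS2 in each library. Whether the input served as the control of the peak caller is not given in the sources used here. Each deposited fold is a ratio, pileup over local background where the peak is highest. MACS2 wrote the significance there as −log10 p-value and −log10 q-value, as the authors deposited them. A score, also deposited, repeats 10 times the −log10 p-value without its decimals and was not used. None is normalized between libraries. All peak ends lay inside the chromosomes of the reference sequence of that build.

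The lists reach past a q-value of 0.05, so peaks with a −log10 q above 1.301 were kept. In the segments 14.1% to 24.8% of the deposited peaks fell below it, the highest of them at 1.28, 1.28, 1.30 and 1.25 and the lowest kept at 1.32, 1.33, 1.31 and 1.30. Peaks overlapping by at least 1 bp were merged, and the summit was that of the peak with the highest −log10 q. Pileup and background were solved together from the p-value of the Poisson distribution and from the fold, which adds 1 to both before dividing, to within 0.005 for at least 99.9% of the peaks. The solver, the merging, the motif search and the tests were checked on simulated data. Genes were those of GENCODE release 44. Densities used the bases that are not N.

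The segments, gene lists and tests were chosen with earlier results of these data known. Sites named in the text were the 25 per segment with the highest summed −log10 q among those with a peak in both libraries of a condition or in at least 3, the 5 highest per library, those with an element in at least 2 libraries, and the fixed gene lists. The 5 elements of the chr1 segment, both promoter sites and the sites shown as split between conditions were named after their values were seen. Libraries were compared by two-sided exact permutation tests, sign flips within libraries for segment against rest and 6 assignments for siCDK12 against siCtrl. Their p-values measure only the spread between these libraries, which may be technical. The differential binding test of the study needs read counts and was not repeated. A few genes of the fixed lists are counted but not reported here by name. The scripts ran in Python 3.11.15 with pandas 2.3.3, numpy 2.4.6, pysam 0.24.0, SciPy 1.17.1 and matplotlib 3.10.9.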

Additional observations from a re-analysis of the deposited data

How the results depend on the processing

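The 14 values compared were recomputed 165 times, each with 1 choice changed, and 131 kept their direction or stayed within the limit set for them. The background ratios kept their direction in all alternatives run. The density ratios did so too wherever a mean could be formed, though at a fold of 5 or more the chr1 ratio fell to 1.15. No mean could be formed on chr3 at that cut-off, since siCDK12 replicate 3 had 0 such peaks in the segment. The other 3 libraries gave 0.191 to 0.313 there. The size of the density ratios depended on the choices made. Against the rest of the same chromosome arm they were 15.9 on chr1 and 2.88 on chr3. At a -log10 q of 3 and of 5 they were 11.3 and 6.48 on chr1 and 5.79 and 19.98 on chr3. The fold ratio of the chr1 segment turned to 1.07 among peaks of a fold of 5 or more. The share of the chr3 peaks in the chr3 segment, siCDK12 minus siCtrl, turned to -1.19 percentage points among the same peaks. With the same number of peaks from each library this difference was -4.28 points on chr3 and -1.15 points on chr1. siCtrl replicate 2, which has the most peaks, decided its sign, since leaving out 1 library at a time gave -1.72 to 2.30 points on chr3 and -2.005 to 11.3 points on chr1, both lowest without that replicate.

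Lost sites fell to 3, 1 and 1 in the chr1 segment and to 5, 2 and 1 in the chr3 segment under 3 stricter cut-offs, a -log10 q of 3, a -log10 q of 5 and a fold of 5. Gained sites fell to 1, 0 and 0 in each segment. With the same number of peaks from each library, lost sites were 9 on chr1 and 7 on chr3. With a library left out, the condition it belonged to needs a peak in only 1 library, and the counts then ranged from 10 to 161 lost and 7 to 89 gained on chr1, and from 17 to 155 lost and 7 to 73 gained on chr3. The highest lost counts, 161 and 155, were those without siCtrl replicate 3, and without siCtrl replicate 2 they were 103 and 65. The share of sites with an element was 0 in the chr1 segment under the same 3 cut-offs and 0.219% with no mismatch. In the chr3 segment it was 2.44% at a -log10 q of 5, 25% at a fold of 5 and 0 with no mismatch. The stricter cut-offs leave few sites, and causes beyond that were not tested. No paired analysis was possible because replicate number 3 is the only one found in both conditions. Depth is unknown from peak lists, and binding too weak for the q-value threshold cannot be seen in them.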
